A study of Mus musculus with 3 samples.

Results

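A set of 9 chemokine system genes, 7 ligands and 2 receptors that draw monocytes and other myeloid cells, was followed in immune cells of mouse melanomas after a transfer of tumour-specific T cells. The genes were Ccl2, Ccl7, Ccl8, Ccl12, Ccl6, Ccl9, Ccl24, Ccr2 and Ccr1, taken by symbol, and they are 9 of the 32285 genes in the files. C57BL/6 mice carried B16F10 melanomas under the skin, and in vitro-activated Pmel-1 cytotoxic T lymphocytes (CTLs), which recognise the melanoma antigen gp100, were given by vein on day 9 after inoculation. CD45+ (white blood) cells were taken from tumours on day 3, day 7 and day 14 after the transfer, and equal cell numbers from 3 mice were pooled into 1 library per day. All 3 groups carried tumour and transfer, and no library without transfer is analysed here. The day after transfer therefore cannot be told apart from the age of the tumour or from the library. One label field states a cell sorter and the series' design text states magnetic beads for the CD45 selection.

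Monocytes leave the marrow and enter inflamed tissue along chemokines that bind CCR2, a receptor carried by classical Ly6C-high monocytes and lost by many of their macrophage descendants. Ccl2, Ccl7 and Ccl12 encode CCR2 ligands of the monocyte chemoattractant protein family, and Ccl8 encodes a further family member whose mouse protein acts chiefly through CCR8. Ccl6 and Ccl9 encode ligands of CCR1, a receptor of neutrophils and monocytes, and Ccl24 encodes eotaxin-2, a CCR3 ligand known for drawing eosinophils. In many tumours, monocytes that enter through CCR2 become macrophages, some of which express the arginine-degrading enzyme Arg1 and others C1q and the platelet factor gene Pf4.

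The ligand genes lie in tight clusters, apart from Ccl24. In the mouse GRCm38 (mm10) build with GENCODE M21 genes, Ccl2 (chr11:82035571-82037453), Ccl7 (chr11:82045712-82047525), Ccl12 (chr11:82101845-82103400) and Ccl8 (chr11:82115185-82116799) lie in this order on the plus strand. Ccl11 lies between Ccl7 and Ccl12. Ccl9 (chr11:83572919-83578636) and Ccl6 (chr11:83587882-83593087) lie side by side on the minus strand of the same chromosome. Ccl24 is on the minus strand of chromosome 5 (chr5:135569937-135573049), and Ccr1 (chr9:123962124-123968692, minus) and Ccr2 (chr9:124101950-124113557, plus) lie near each other on chromosome 9. The 250 bases before the start of 2 neighbour pairs are shown, because Ccl12 and Ccl8 differed across macrophages and Ccl6 and Ccl9 differed in neutrophils. They are RefSeq promoter sequences of GRCm38.p6, 5′ to 3′ on the gene's strand, and capitals mark motif matches.
Ccl12 (chr11:82101595-82101844, plus): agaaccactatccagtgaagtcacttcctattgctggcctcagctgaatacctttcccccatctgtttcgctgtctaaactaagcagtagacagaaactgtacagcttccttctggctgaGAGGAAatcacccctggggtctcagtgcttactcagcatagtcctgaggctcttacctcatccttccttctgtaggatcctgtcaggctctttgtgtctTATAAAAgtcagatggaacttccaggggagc
Ccl8 (chr11:82114935-82115184, plus): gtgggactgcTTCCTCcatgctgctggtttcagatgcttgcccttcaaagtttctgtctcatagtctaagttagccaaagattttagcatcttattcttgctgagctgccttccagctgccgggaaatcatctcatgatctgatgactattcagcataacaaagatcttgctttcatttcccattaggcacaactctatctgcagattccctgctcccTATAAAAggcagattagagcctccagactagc
Ccl6 (chr11:83593088-83593337, minus): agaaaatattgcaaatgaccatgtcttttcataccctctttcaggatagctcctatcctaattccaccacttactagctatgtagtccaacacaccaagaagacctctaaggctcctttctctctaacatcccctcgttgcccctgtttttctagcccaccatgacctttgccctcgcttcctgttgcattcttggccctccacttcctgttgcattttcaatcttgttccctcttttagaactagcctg
Ccl9 (chr11:83578637-83578886, minus): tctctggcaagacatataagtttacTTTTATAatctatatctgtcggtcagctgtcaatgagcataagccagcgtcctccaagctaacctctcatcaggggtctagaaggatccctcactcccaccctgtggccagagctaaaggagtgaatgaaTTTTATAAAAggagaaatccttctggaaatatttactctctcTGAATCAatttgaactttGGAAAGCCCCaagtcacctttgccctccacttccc

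The windows were searched on both strands for 8 motifs: GGGNNNNNCC (NF-kappaB type), GAAANNGAAA (interferon type), TTCNNNGAA and TTCNNNNGAA (STAT type), TTGCNNAA (C/EBP type), and the shorter forms of an AP-1 site (TGANTCA), of the core that the myeloid factor PU.1 binds (GAGGAA) and of the TATA box found near many transcription starts (TATAAAA). GAAANNGAAA was found in 2.98%, TTCNNNGAA in 7.02%, TTCNNNNGAA in 5.85% and TTGCNNAA in 9.56% of all 32851 promoter windows of this length. The window of Ccl12 held GAGGAA 130 to 125 bases and TATAAAA 31 to 25 bases before the start. That of Ccl8 held GAGGAA on the other strand 240 to 235 bases before the start and TATAAAA 32 to 26 bases before it. Both neighbours thus carried a TATAAAA match at nearly the same distance, a match found in 4.98% of all windows, while GAGGAA was found in 23.3%. The Ccl9 window held GGGNNNNNCC on the other strand 35 to 26 bases before the start (45.8% of all windows) and TGANTCA 53 to 47 bases before it (6.75% of all windows). It also held TATAAAA 92 to 86 bases before the start, with an overlapping match on the other strand 95 to 89 bases before it and another at 225 to 219. The Ccl6 window held none of the 8 motifs. A match is a run of letters and was not linked here to binding of any factor.

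The values are counts of unique molecular identifiers (UMIs, 1 per captured RNA molecule) from 3′ ends. Levels are CPM, the UMIs of a gene in each 1000000 UMIs of the cells summed, and are not divided by gene length, since 1 molecule gives 1 UMI whatever its length. The libraries held 33096709, 29547433 and 35742070 UMIs on day 3, day 7 and day 14, and 2775, 2600 and 2902 barcodes of at least 1500 UMIs, which were kept as cells. Cells were cut into 5 groups, or gates, by UMI thresholds: classical monocytes (Ly6c2 at least 3 and Chil3 at least 3; 607, 398 and 375 cells by day), Arg1-high macrophages (Arg1 at least 5 and Pf4 under 5; 111, 134 and 264) and Pf4-high macrophages (Pf4 at least 5 and C1qa at least 10; 64, 27 and 121). Type 2 conventional dendritic cells (cDC2, Cd209a at least 2; 87, 91 and 95 cells) and neutrophils (S100a8 plus S100a9 at least 20; 85, 76 and 137) completed them. A cell that passed more than 1 threshold counted in each group (34, 33 and 62 cells). Marker genes that the cuts did not use were present in each group: 7 monocyte markers summed to 6339 to 7016 CPM in monocytes against 3046 to 3650 in Arg1-high macrophages, and 7 Pf4-high markers to 8007 to 10500 CPM in Pf4-high macrophages against 1551 to 2259. Dendritic markers summed to 971 to 1509 CPM in cDC2 against 66.8 to 103 in monocytes, and neutrophil markers to 4793 to 7974 CPM in neutrophils against 89.9 to 145, with Ly6g at 0 on day 7. The 7 Arg1-high markers did not set their group apart from every other: they summed to 4210 to 5885 CPM in it, 1707 to 2792 in monocytes, 3290 to 5142 in Pf4-high macrophages and 3427 to 4379 in neutrophils. T cell markers were highest in Pf4-high macrophages, at 1138, 1305 and 563 CPM, against 6227 to 10106 in T cells, and their part in the results was not tested.

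Some barcodes occurred in more than 1 library. Of the barcodes of at least 1500 UMIs these were 138, 180 and 87 by day (4.97%, 6.92% and 3.00%), with a median of 39214.5, 31435 and 40209 UMIs where they were kept against 809.5, 735 and 770 in the other library. Among Pf4-high macrophages they were 18 of 64, 4 of 27 and 12 of 121 cells, so values of that group are given with and without them. Each library is 1 pool, so intervals (95%, exact Poisson or binomial) cover counting error only and no test between days was possible. A value is called higher or lower here where it differs by at least 1.5-fold, the interval of the ratio excludes 1 and both groups together hold at least 20 UMIs. That is a rule of size.

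Ccl2 was carried chiefly by macrophages and monocytes. Its level in Arg1-high macrophages was 4068 CPM (3976 to 4162) on day 3, 4158 (4061 to 4258) on day 7 and 4864 (4794 to 4935) on day 14. Pf4-high macrophages had 3843 (3749 to 3939), 2682 (2533 to 2838) and 3876 (3803 to 3950) CPM, and classical monocytes 2136 (2103 to 2170), 2414 (2369 to 2459) and 2789 (2743 to 2836). Arg1-high macrophages had the highest value in all 3 libraries, whereas the order of Pf4-high macrophages and monocytes was not resolved. On day 3 the order of the macrophages turned without cells of more than 1 group, at 3518 CPM in Arg1-high and 3988 in Pf4-high macrophages, and without cells that held lymphocyte UMIs, at 4440 and 5122. The Pf4-high level without shared barcodes was 4473, 2266 and 4175 CPM. In cDC2 the level was 390, 305 and 368 CPM, in neutrophils 314, 235 and 592 CPM, and in T cells, which show the free RNA background, 11.8, 7.14 and 18.4 CPM. In neutrophils 1 cell held 61.1%, 60.9% and 37.3% of the Ccl2 UMIs.

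The share of cells with a Ccl2 UMI was compared after each cell was thinned to 1500 UMIs, a draw that removes differences in depth. It was 85.9%, 81.5% and 82.6% in Pf4-high macrophages, 78.4%, 73.9% and 67.8% in Arg1-high macrophages and 57.0%, 58.0% and 57.3% in monocytes. In monocytes it was 82.2%, 78.6% and 78.4% without thinning. Neutrophils had a Ccl2 UMI in 5.88%, 6.58% and 8.76% of cells and T cells in 2.21%, 1.57% and 4.40%. Ccl2 was thus detected in most macrophages and monocytes at a fixed depth, and in few neutrophils, at shares above those of the T cells.

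Ccl7, the neighbour of Ccl2, was highest in Pf4-high macrophages. They had 3359, 2640 and 3509 CPM by day (4252, 2162 and 3611 without shared barcodes), Arg1-high macrophages 2882, 2023 and 2545, and classical monocytes 1006, 1092 and 1485. The order of these 3 groups was the same in each library, except that TMM scaling, which adjusts for RNA composition, put Pf4-high below Arg1-high macrophages on day 3 (2726 against 2828). In cDC2 the level was 386, 68.2 and 183 CPM, in neutrophils 146, 18.3 and 279 CPM, and in T cells 13.3, 7.32 and 14.7 CPM. Cells with a UMI followed the same order. After thinning, a Ccl7 UMI was found in 78.1%, 74.1% and 75.2% of Pf4-high macrophages, 56.8%, 45.5% and 50.4% of Arg1-high macrophages and 20.4%, 25.4% and 25.3% of monocytes. In monocytes the share without thinning was 37.1%, 41.0% and 43.5%. T cells had a Ccl7 UMI in 2.84%, 0.784% and 2.68% after thinning. The median depth was 10302 to 11507 UMIs in monocytes, 11423.5 to 13106.5 in Arg1-high macrophages, 14301 to 20616 in Pf4-high macrophages and 5930 to 7895 in T cells.

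**Figure D1:**
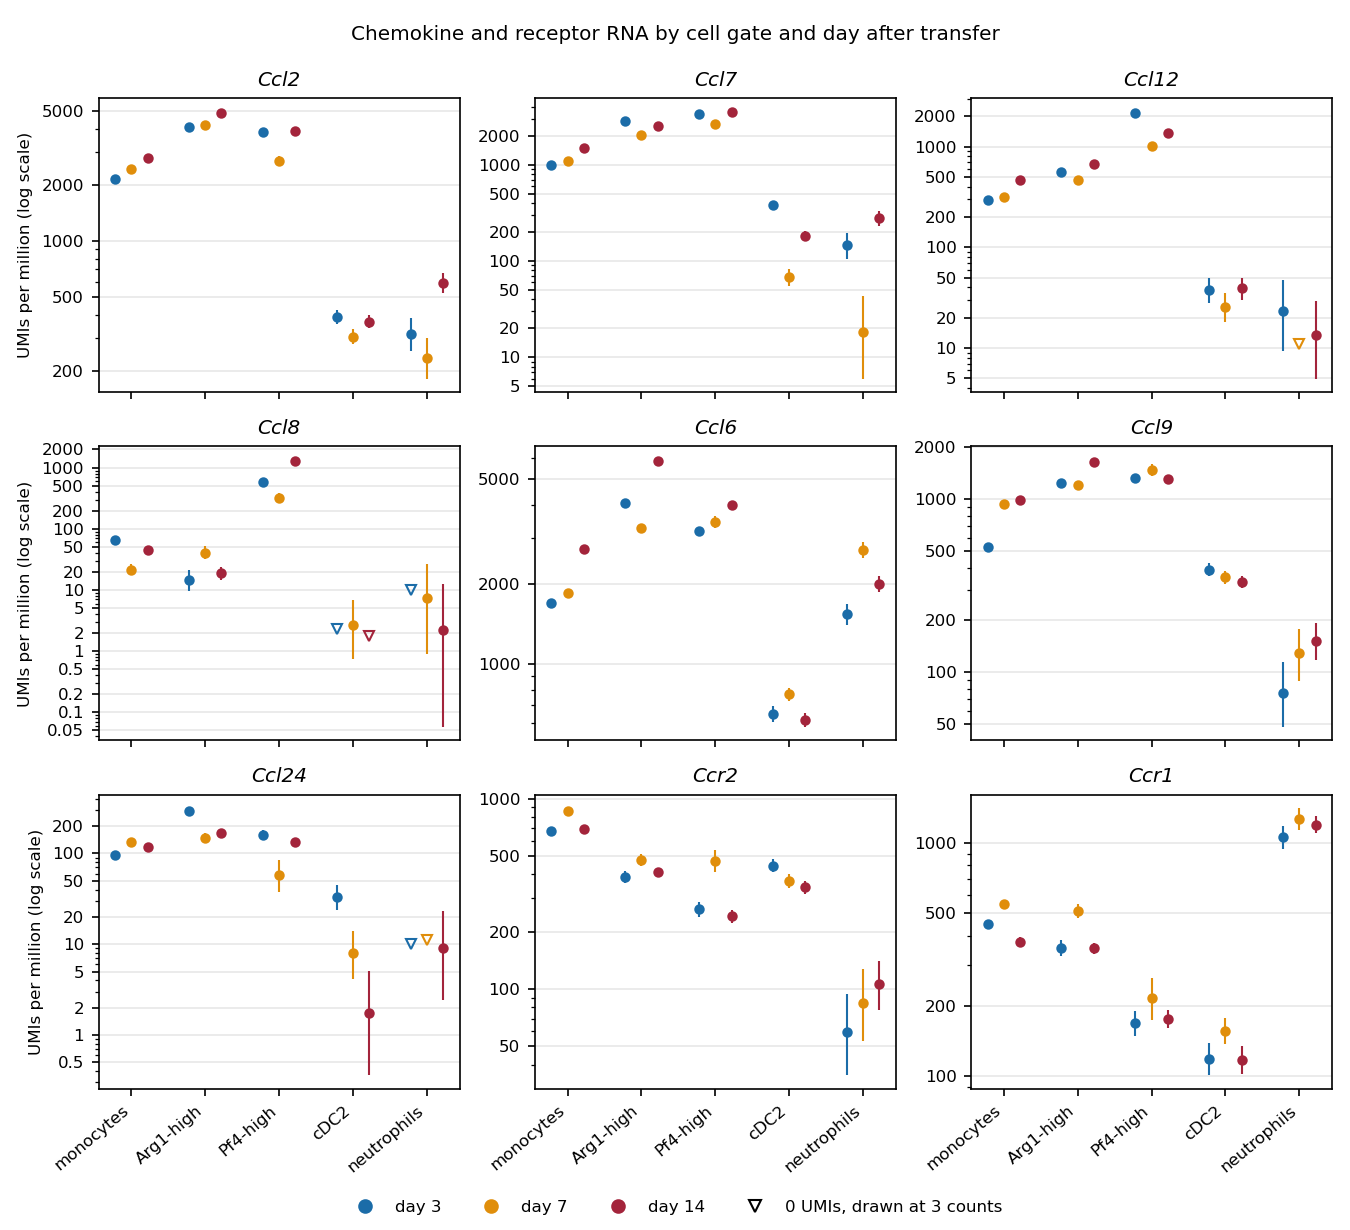
Level of each of the 9 genes in CPM (UMIs scaled to each group's total, log axis) by day after transfer, one panel per gene, with cell groups along the x axis, 1 colour per day and exact 95% Poisson bars for counting error. Open triangles mark 0 UMIs, drawn at the level of 3 counts. Ccl8 stands out in Pf4-high macrophages, at 578, 324 and 1310 CPM, Ccr2 is highest in classical monocytes (672, 865 and 695 CPM) and Ccr1 in neutrophils (1058, 1270 and 1198 CPM).

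Ccl12, a CCR2 ligand of rodents, leaned further towards Pf4-high macrophages. The level there was 2151 CPM on day 3, 1014 on day 7 and 1366 on day 14, against 562, 470 and 667 in Arg1-high macrophages and 292, 316 and 461 in classical monocytes. Pf4-high macrophages were the highest in all 3 libraries, and exceeded Arg1-high macrophages 3.83-fold (3.57 to 4.11), 2.16-fold (1.92 to 2.43) and 2.05-fold (1.95 to 2.16) when cells of both groups were left out. Without shared barcodes the Pf4-high level was 1841, 579 and 1354 CPM. A Ccl12 UMI was found after thinning in 48.4%, 51.9% and 55.4% of Pf4-high macrophages and 16.8%, 13.3% and 17.1% of monocytes, against at most 0.588% of T cells. The level was low elsewhere: cDC2 had 37.8, 25.4 and 39.1 CPM, and T cells 3.49, 1.61 and 1.71 CPM. Neutrophils held 7, 0 and 6 Ccl12 UMIs, and the count of 0 allows up to 11.0 CPM at a level of 3 counts (exact upper bound 13.5 CPM).

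Ccl8 was the ligand whose level differed most between Pf4-high and Arg1-high macrophages. It stood at 578 CPM (542 to 616), 324 (273 to 381) and 1310 (1268 to 1354) in Pf4-high macrophages by day, from 949, 146 and 3621 UMIs. Without shared barcodes the level was 714, 362 and 1463 CPM. Arg1-high macrophages had 14.8, 41.0 and 18.7 CPM, so that Pf4-high macrophages exceeded them 39.0-fold (26.6 to 59.4), 7.90-fold (5.89 to 10.7) and 70.1-fold (55.4 to 89.9). Monocytes had 66.5, 21.5 and 45.4 CPM. When cells of both groups were left out, Pf4-high macrophages exceeded them 17.8-fold (15.1 to 21.2), 16.1-fold (12.3 to 21.1) and 31.1-fold (27.1 to 35.9). The groups other than Pf4-high macrophages rested on single cells: 1 cell held 61.5%, 59.6% and 79.4% of the Ccl8 UMIs of monocytes and 81.5%, 86.8% and 53.5% of those of Arg1-high macrophages. In Pf4-high macrophages the top cell held 31.5%, 41.8% and 11.5%. On day 3 the top cell held 299 UMIs in monocytes and also 299 in Pf4-high macrophages, and 6 cells passed both thresholds. Ccl8 UMIs numbered 0 in cDC2 on day 3 and day 14, which allows up to 2.31 and 1.75 CPM (3 counts). On day 7 cDC2 had 2.67 CPM. Neutrophils held 0, 2 and 1 Ccl8 UMIs, and T cells had 0.317, 0.535 and 2.99 CPM.

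The Pf4-high macrophages were not uniform for Ccl8. After thinning, 14 of 64, 5 of 27 and 38 of 121 cells had a Ccl8 UMI, or 21.9%, 18.5% and 31.4% (45.3%, 40.7% and 53.7% without thinning), against 0%, 0% and 0.382% of T cells. A split of the group by that UMI was chosen after values had been seen, and it is given as a description. Ccr2 stood at 81.5 CPM (55.0 to 116) in the cells with a Ccl8 UMI on day 3, 86.1 (31.6 to 187) on day 7 and 100 (81.1 to 123) on day 14. In the cells without one Ccr2 stood at 314 (284 to 346), 541 (469 to 620) and 314 (289 to 341) CPM. Ccl8-positive cells were thus lower for Ccr2 in each library, and without shared barcodes the pairs were 154 against 451, 89.3 against 541 and 118 against 328 CPM. As a share of cells with a Ccr2 UMI after thinning, day 14 showed 3 of 38 (7.89%, 1.66% to 21.4%) against 31 of 83 (37.3%, 27.0% to 48.7%).

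The CCR1 ligand genes were also lower beside Ccl8. Ccl6 stood at 1579, 2210 and 2371 CPM in Ccl8-positive and 3636, 3674 and 4846 in Ccl8-negative Pf4-high macrophages, and Ccl9 at 660, 545 and 802 against 1524, 1643 and 1577 CPM. Of 7 marker genes of Pf4-high macrophages that the thresholds did not use, all but Cd163, at under 10 CPM, lay the other way in each library. Apoe, which carries lipids, stood at 3794, 5985 and 6660 CPM beside Ccl8 and 2356, 1685 and 2973 without it. Selenop, a selenium carrier, stood at 530, 1019 and 749 against 288, 336 and 283 CPM, and the complement gene C1qb at 4090, 6043 and 4449 against 2683, 2932 and 2785. Pf4 itself stood at 3299, 1220 and 2785 CPM beside Ccl8 and 3120, 2126 and 3075 without it. Ly6c2, a monocyte gene, stood at 120, 215 and 22.2 CPM beside Ccl8 and 224, 486 and 85.4 CPM without it, but without shared barcodes its day 3 values were 207 and 188. Ccl2 gave no steady order, with 3946, 2124 and 2868 CPM against 3813, 2785 and 4402, and Ccl12 was above on day 3 (4033 against 1608) and below on day 7 (316 against 1142) and day 14 (1199 against 1453). Without shared barcodes Ccl2 on day 3 was at 3890 CPM beside Ccl8 and 4652 without it, while the order of Ccl6, Ccl9, Ccl12, Apoe, Selenop and C1qb was as given in each library. Median depth was 26233, 13295 and 23019.5 UMIs in the Ccl8-positive cells and 18809.5, 14589 and 18363 in the others.

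Ccl6 was, of the 7 ligands, the one with the highest level in neutrophils. Neutrophils had 1541 CPM (1404 to 1688), 2701 (2509 to 2904) and 2006 (1877 to 2143), from cells of 2397 to 2605 median UMIs, and their order against classical monocytes, at 1694, 1856 and 2727 CPM, was not resolved. Arg1-high macrophages had 4042, 3263 and 5831 CPM and Pf4-high macrophages 3175, 3448 and 3997 (4988, 3721 and 4300 without shared barcodes), and their order differed between days. cDC2 were the lowest, at 647, 768 and 615 CPM, with T cells at 14.3, 11.2 and 25.2 CPM. A Ccl6 UMI was found after thinning in 63.5%, 80.3% and 73.7% of neutrophils (75.3%, 90.8% and 80.3% without thinning), in 62.8%, 75.4% and 77.9% of monocytes and in 2.52%, 1.96% and 3.06% of T cells.

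Its neighbour Ccl9 was low in neutrophils. Arg1-high macrophages had 1240, 1208 and 1650 CPM, Pf4-high macrophages 1330, 1473 and 1311 (2001, 1669 and 1402 without shared barcodes), monocytes 533, 936 and 989 and cDC2 392, 354 and 332. Neutrophils were the lowest of the 5 groups in all 3 libraries, at 76.1, 128 and 151 CPM, and T cells had 33.3, 28.4 and 9.39 CPM. Of the T cells' Ccl9 UMIs, 1 cell held 28 of 105 on day 3 and 60 of 159 on day 7. Monocytes exceeded neutrophils 6.97-fold, 19.8-fold and 6.35-fold for Ccl9 when cells of both groups were left out. For Ccl6 the neutrophil over monocyte ratio was 1.002, 1.52 and 0.759. The share of neutrophils with a Ccl9 UMI was 9.41%, 3.95% and 7.30% after thinning, against 36.4%, 60.6% and 55.2% of monocytes and 1.26%, 2.35% and 0.956% of T cells.

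Ccl24, the eotaxin gene, was the rarest ligand by cells in the monocytes apart from Ccl8. Arg1-high macrophages had 290, 149 and 166 CPM, Pf4-high macrophages 158, 57.7 and 133 (239, 59.4 and 165 without shared barcodes) and monocytes 96.5, 133 and 117. On day 3 1 cell held 306 of the 528 Ccl24 UMIs of Arg1-high macrophages, or 58.0%, and the same cell also passed the monocyte thresholds. After thinning, 3.13%, 6.03% and 5.07% of monocytes (9.56%, 16.1% and 12.5% without thinning) and 9.91%, 6.72% and 7.58% of Arg1-high macrophages had a Ccl24 UMI. cDC2 had 33.2, 8.02 and 1.75 CPM, and neutrophils held no Ccl24 UMI on day 3 and day 7.

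Ccr2 was highest in the classical monocytes among the 5 groups. They had 672 CPM (653 to 691) on day 3, 865 (839 to 893) on day 7 and 695 (672 to 719) on day 14, the highest of the 5 groups in each library. Arg1-high macrophages had 388, 476 and 412 CPM, and monocytes exceeded them 1.84-fold (1.68 to 2.02), 2.12-fold (1.94 to 2.33) and 1.96-fold (1.83 to 2.10). Pf4-high macrophages had 262, 470 and 241 CPM (382, 481 and 253 without shared barcodes) and cDC2 445, 369 and 343, and the order of these 3 groups was not resolved. Neutrophils had 59.5, 84.4 and 106 CPM from 18, 23 and 47 UMIs, and B cells, which show the background for this gene, 5.29, 0 and 0 CPM in 54, 6 and 40 cells. The zeros had exact upper bounds of 95.7 CPM on day 7 and 19.3 CPM on day 14, so the 6 cells of day 7 set no background. T cells are no background here, with 97.5, 144 and 111 CPM and a Ccr2 UMI in 12.0%, 16.7% and 15.3% after thinning. Outside the 5 groups, cells with the NK cell gene Ncr1 had 421, 449 and 350 CPM. Those with the regulatory T cell gene Foxp3 had 337, 657 and 411 CPM. After thinning, 62.8%, 69.8% and 62.9% of monocytes had a Ccr2 UMI, against 33.3%, 39.6% and 37.9% of Arg1-high macrophages and 3.53%, 2.63% and 4.38% of neutrophils. Without thinning 95.2%, 98.2% and 97.9% of monocytes and 84.7%, 78.4% and 81.4% of Arg1-high macrophages had one.

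Ccr1, which binds the products of Ccl6 and Ccl9, was highest in neutrophils, at 1058 CPM (945 to 1181), 1270 (1140 to 1411) and 1198 (1098 to 1304). Monocytes followed with 449, 547 and 376 CPM, then Arg1-high macrophages with 353, 509 and 353, Pf4-high macrophages with 168, 215 and 175 (241, 208 and 190 without shared barcodes) and cDC2 with 119, 156 and 117. This order was the same in all 3 libraries and each step was resolved beyond counting error. Under TMM scaling monocytes lay below Arg1-high macrophages on day 7 (528 against 550) and day 14 (361 against 387). Neutrophils exceeded monocytes 2.60-fold (2.30 to 2.92), 2.46-fold (2.18 to 2.77) and 3.29-fold (2.98 to 3.62). After thinning, 82.4%, 78.9% and 84.7% of neutrophils had a Ccr1 UMI (94.1%, 90.8% and 95.6% without thinning), against 50.9%, 49.5% and 40.8% of monocytes and 0.315%, 1.76% and 0.765% of T cells. The receptors were thus ordered oppositely in neutrophils and monocytes, Ccr1 above Ccr2 in the first and Ccr2 above Ccr1 in the second, in CPM.

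Counted over the 9 genes, Arg1-high macrophages stood higher than monocytes in 6 of 9 on day 3, where 9.62% of all genes tested did. On day 7 it was 3 of 9 (9.1% of all genes) and on day 14 6 of 9 (7.24%). Lower than in monocytes were 2 of 9 in each library, Ccr2 with Ccl8 on day 3 and day 14 and with Ccl24 on day 7, beside 11%, 20.1% and 19.5% of all genes. Cells of both groups were left out here. With them, Ccl24 on day 7 stood at 149 CPM in Arg1-high macrophages and 133 in monocytes. Without the top cell of each group, Ccl8 on day 14 stood at 7.28 and 8.55 CPM, which is within 1.5-fold. Pf4-high macrophages were higher than Arg1-high macrophages in 2 of 9 in each library, Ccl12 and Ccl8, where 19.5%, 13.5% and 26.1% of all genes were, so the count itself lies near the background. They were lower in 2, 3 and 2 of 9, beside 8.15%, 7.77% and 7.67%. Against monocytes, Pf4-high macrophages were higher in 7, 5 and 3 of 9 (25.2%, 9.88% and 18.8% of all genes) and lower in 2, 3 and 2 (13.3%, 8.95% and 11.8%). In cDC2, 0 of the 9 were higher than in monocytes (9.99%, 14% and 15% of all genes), and 8, 9 and 9 were lower, beside 14.2%, 15.6% and 14.4%. Neutrophils were higher than monocytes in 1, 2 and 1 of the 9 (9.69%, 11.1% and 11.8% of all genes), Ccr1 in each library and Ccl6 on day 7. They were lower in 7, 6 and 7, beside 20.9%, 27.4% and 31.8%.

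The UMIs of each gene were unevenly spread over the cells of a group. In classical monocytes the 10% of cells with the most UMIs of Ccl7 held 76.0% to 90.4% of them over the 3 days, and the figure was 80.5% to 85.9% for Ccl12 and 96.1% to 100% for Ccl24. It was 51.6% to 58.1% for Ccl2, 45.0% to 58.8% for Ccl6 and 42.8% to 57.2% for Ccl9. For Ccr2 it was 24.4% to 26.3% and for Ccr1 27.1% to 29.1%. In Pf4-high macrophages it was 31.3% to 36.8% for Ccl2, 30.8% to 38.2% for Ccl7 and 64.3% to 75.3% for Ccl8, and 34.4% to 40.6% for Ccr2. A gene with fewer UMIs gives a larger share by counting alone, so genes of unlike level are not compared by these values.

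**Figure D2:**
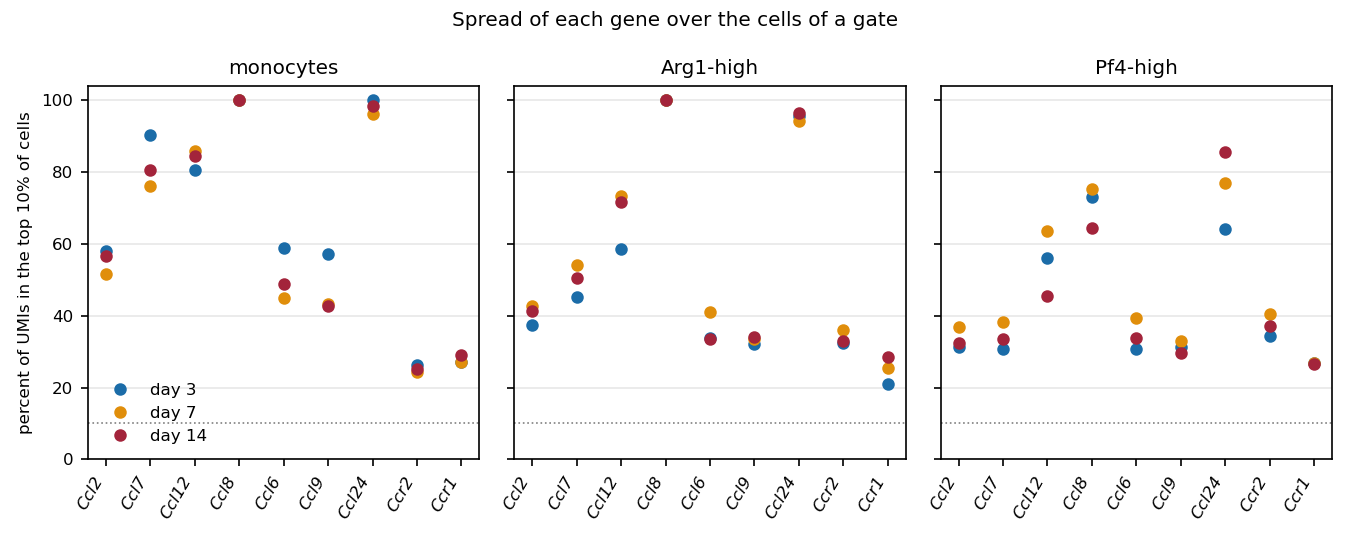
Share of a gene's UMIs held by the 10% of cells with the most of them (y axis, percent), for each gene in monocytes, Arg1-high and Pf4-high macrophages, with 1 point per library and a dotted line at 10%, the value of an even spread. In classical monocytes Ccr2 and Ccr1 lie between 24.4% and 29.1%, and Ccl7 between 76.0% and 90.4%.

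Ccl2 and Ccl7 UMIs tended to fall in the same cells. Among monocytes thinned to 1500 UMIs, Ccl7 was found in 32.1% of those with a Ccl2 UMI and 4.98% of those without on day 3, in 38.5% and 7.19% on day 7 and in 41.9% and 3.12% on day 14. Of the monocytes with a Ccl7 UMI, 89.5%, 88.1% and 94.7% also had Ccl2. In Arg1-high macrophages Ccl7 was found in 66.7%, 60.6% and 69.3% of cells with Ccl2 and 20.8%, 2.86% and 10.6% of those without. The receptor did not divide the monocytes that way: Ccr2 was found in 63.3%, 70.6% and 64.2% of those with a Ccl2 UMI and in 62.1%, 68.9% and 61.2% of those without. Ccl9, the neighbour of Ccl6, was found in 48.3%, 68.0% and 58.9% of monocytes with a Ccl6 UMI and in 16.4%, 37.8% and 42.2% of those without.

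Cells that met both the monocyte and the Arg1-high thresholds carried more Ccl2, Ccl7 and Ccl24 RNA, as a share of their UMIs, than either group alone. They numbered 24, 22 and 51, and this split was chosen after values had been seen. Ccl2 stood at 5925, 6315 and 5898 CPM in them, against 1908, 2110 and 2114 in cells that met only the monocyte thresholds and 3518, 3619 and 4545 in cells that met only the Arg1-high ones. Without shared barcodes the double-threshold cells had 7682, 7759 and 5785 CPM, and without their top cell 5307, 5257 and 5424. Ccl7 stood at 4116, 3882 and 3606 CPM, against 819, 875 and 1025 and 2517, 1558 and 2218. Ccl24 stood at 888, 458 and 306 CPM (157, 284 and 254 without the top cell), against 48.7, 108 and 76.2 and 113, 71.6 and 122. For these 3 ligands the cells with both marks were thus the highest of the 3 kinds in each library.

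The receptor lay between: Ccr2 stood at 440, 732 and 544 CPM in cells with both marks, at 686, 876 and 728 in monocyte-only cells and at 373, 412 and 372 in Arg1-only cells. Ccl6 stood at 4102, 3234 and 5462 CPM in cells with both marks, close to the Arg1-only cells at 4024, 3270 and 5945 and above the monocyte-only cells at 1549, 1748 and 2134. Ccl12 gave no steady order, with 464, 915 and 1227 CPM in cells with both marks and 590, 358 and 494 in Arg1-only cells. Median depth was 13477.5, 13580 and 15551 UMIs in cells with both marks, 10246, 10517 and 11183 in monocyte-only cells and 12217, 10998.5 and 12685 in Arg1-only cells. A barcode that holds 2 cells also has both marks and more UMIs, and its part in these values was not tested.

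**Figure D3:**
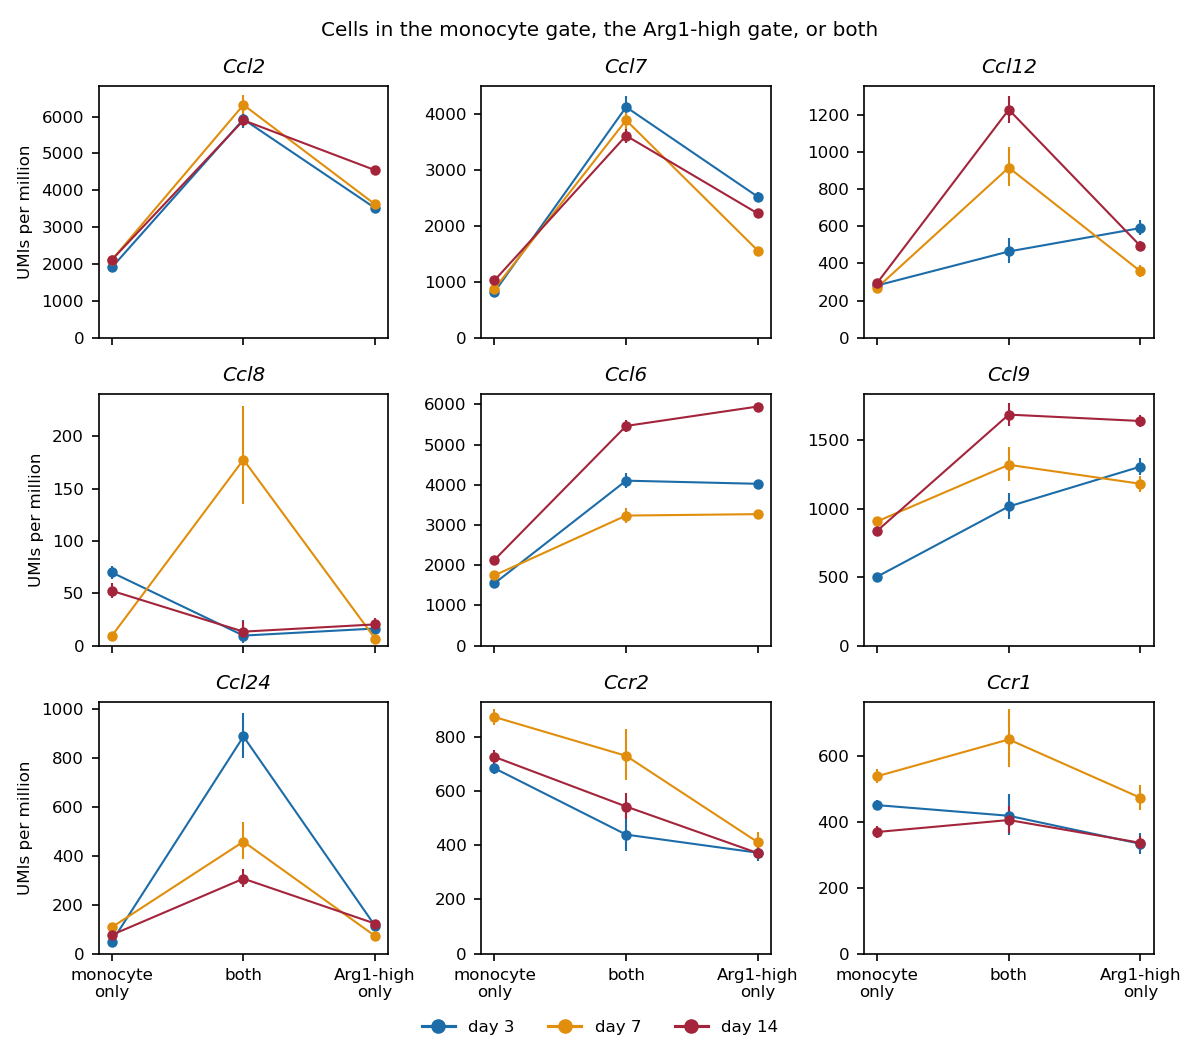
Level of the 9 genes in CPM (linear axes from 0) in cells that met only the monocyte thresholds, both thresholds, or only the Arg1-high thresholds, with 1 point per library, lines that join the points of a library, and 95% Poisson bars. Ccl2 is highest in the cells with both marks (5925, 6315 and 5898 CPM) and Ccr2 in the monocyte-only cells (686, 876 and 728 CPM).

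The share of each library's RNA held by a group combines how many cells it has with how much each holds. Classical monocytes were 21.9%, 15.3% and 12.9% of the cells by day and Arg1-high macrophages 4%, 5.15% and 9.10%. Cells in monocytes alone held 28.7%, 29.7% and 13.4% of all Ccl2 UMIs and cells in Arg1-high macrophages alone 11.3%, 16.9% and 22.2%. Cells outside every group held 38.4%, 39.7% and 36.1% of Ccl2. Those among them with at least 10 UMIs of Lyz2, a lysozyme gene of myeloid cells, held 36.3%, 33.5% and 31.8% of all Ccl2. For Ccl8, Pf4-high macrophages alone held 41.3%, 18.0% and 79.7% of the library's UMIs, while on day 7 cells of no group held 59.1%. For Ccr2, monocytes alone held 35.1%, 30.7% and 23.7%, and cells of no group 50.6%, 55.5% and 53.0%, of which 13.3%, 25.7% and 16.1% of all Ccr2 lay in cells of under 10 Lyz2 UMIs.

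**Figure D4:**
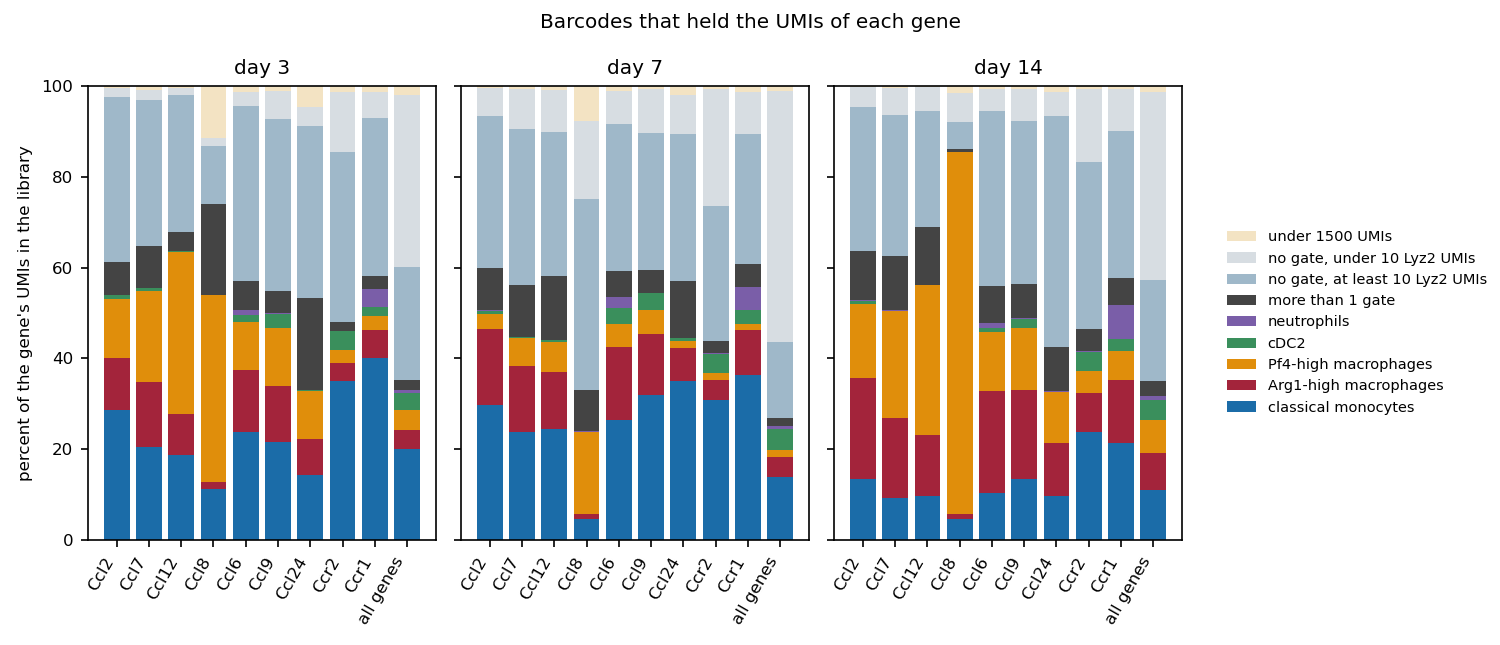
Share of each library's UMIs of a gene (y axis, percent of all barcodes) that lay in each cell group, in cells of more than 1 group, in cells of no group and in barcodes under 1500 UMIs, by day. Pf4-high macrophages hold 79.7% of Ccl8 on day 14 and 18.0% on day 7, and monocytes hold 35.1% to 23.7% of Ccr2.

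Between days, at most 3 of the 9 genes per comparison differed by 1.5-fold in monocytes. Comparing day 14 with day 3, 3 of 9 were higher and 0 lower, beside 5.52% and 8.6% of 10172 genes. Ccl9 was 1.86-fold higher (1.78 to 1.94), Ccl6 1.61-fold (1.57 to 1.65) and Ccl12 1.58-fold (1.49 to 1.68). The last was lost without cells of more than 1 group, where the log2 ratio was −0.04, and that of Ccl6 was under 1.5-fold there. The median log2 ratio of the 9 was 0.38, against 0.01 over all genes. Between day 7 and day 3, 1 was higher on day 7, Ccl9 (1.76-fold, 1.68 to 1.84), and 1 lower, Ccl8 (3.09-fold, 2.48 to 3.87), beside 5.64% and 7.55%. From day 7 to day 14, 1 was higher, Ccl8 (2.11-fold, 1.66 to 2.70), and 0 lower, beside 5.13% and 4.8%. Without the top cell of each library that ratio was 1.08. Ccr2 differed little, with day 14 over day 3 at 1.03-fold (0.99 to 1.08).

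In Arg1-high macrophages the levels of the CCR2 ligand genes Ccl2, Ccl7 and Ccl12 stayed within 1.5-fold between days. Without cells of more than 1 group, Ccl7 and Ccl12 were 1.60-fold and 1.63-fold lower on day 7 than on day 3 and passed the rule. Day 14 over day 7 had 1 of 9 higher, Ccl6 at 1.79-fold (1.73 to 1.84), and 1 lower, Ccl8, beside 3.89% and 6.35% of all genes. Day 14 over day 3 had 0 higher and 1 lower, Ccl24, beside 2.58% and 10.8%. Day 7 over day 3 had 1 higher, Ccl8, and 1 lower, Ccl24, beside 5.5% and 11.4%. Both rested on single cells. Without the top cell of each library, Ccl24 had a log2 ratio of 0.22 on day 14 over day 3 and Ccl8 one of 0.66 on day 14 over day 7. Ccl2 on day 14 over day 3 was at 1.20-fold (1.16 to 1.23).

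In Pf4-high macrophages most differences past the rule involved day 7, as do 2 of the 3 comparisons. On day 7 over day 3, 1 of 9 was higher and 3 lower, beside 5.7% and 9.44% of all genes. Ccl12 was 2.12-fold lower (1.92 to 2.34), Ccl24 2.75-fold lower (1.83 to 4.28) and Ccl8 1.78-fold lower (1.5 to 2.14), while Ccr2 was 1.80-fold higher (1.52 to 2.12). Without shared barcodes Ccr2 was at 1.26-fold and no longer past the rule, and Ccl8 missed it without cells of more than 1 group. From day 7 to day 14, 2 of 9 were higher and 1 lower, beside 4.97% and 6.77%: Ccl8 was 4.05-fold higher (3.43 to 4.81), Ccl24 2.30-fold higher (1.55 to 3.57) and Ccr2 1.95-fold lower (1.67 to 2.28). Against day 3, day 14 had 1 gene higher and 1 lower, beside 2.44% and 6.95%: Ccl8 was 2.27-fold higher (2.11 to 2.44) and Ccl12 1.58-fold lower (1.5 to 1.65). Without shared barcodes the ratio was 0.736 for Ccl12, which missed the rule, and 2.05 for Ccl8. The day 7 group held 27 cells, and 15 dissociation and stress genes summed to 8258, 13344 and 9675 CPM in this group by day, with 10 of 15 higher on day 7 than on day 3. Their part in the day 7 values was not tested.

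In cDC2 and neutrophils the levels rested on fewer UMIs. In cDC2, day 7 over day 3 had 0 of 8 measured genes higher and 2 lower (beside 4.26% and 3.25% of all genes), and day 14 over day 3 had 0 higher and 2 lower (7.08% and 6.6%). Both pairs were Ccl7 and Ccl24, and without shared barcodes the Ccl7 level was 148, 64.6 and 200 CPM, so that its day 14 over day 3 log2 ratio turned to 0.43. For Ccl24 1 cell held 37 of the 43 UMIs on day 3, and both ratios missed the rule without the top cell, without shared barcodes and without cells of more than 1 group. Day 14 over day 7 in cDC2 had 2 of 7 higher, Ccl7 and Ccl12, and 0 lower, beside 5.52% and 5.68%. Both missed the rule with a mean over cells and with thresholds doubled, and Ccl12 turned without the top cell (a ratio of 0.630). In neutrophils, day 14 over day 3 had 4 of 6 measured genes higher and 0 lower, beside 7.54% and 13.9% of all genes. They were Ccl2 (1.89-fold, 1.49 to 2.41), Ccl7 (1.92-fold, 1.35 to 2.77), Ccl9 (1.98-fold, 1.22 to 3.34) and Ccr2 (1.78-fold, 1.01 to 3.25), at 592, 279, 151 and 106 CPM on day 14. For Ccl2 and Ccl7 1 cell held 37.3% and 41.1% of the UMIs on day 14, and both stayed past the rule without the top cell. Ccl9 and Ccr2 missed the rule there, and also with a mean over cells (1.47-fold and 1.28-fold). Ccr2 missed it as well without cells that held lymphocyte UMIs (1.24-fold) and with thresholds doubled (1.09-fold). Ccl6 in neutrophils was 1.75-fold higher (1.56 to 1.97) on day 7 than on day 3, the only 1 of 6 higher there, with 1 lower, Ccl7, from 5 UMIs on day 7 (9.93% and 12.4% of all genes). That Ccl7 ratio missed the rule without the top cell, which held 86.4% of the UMIs on day 3. Stress genes in neutrophils summed to 20084, 33867 and 21944 CPM, and their part was not tested. Against day 7, on day 14 2 of 6 were higher, Ccl2 and Ccl7, and 0 lower, beside 8.04% and 11%.

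**Figure D5:**
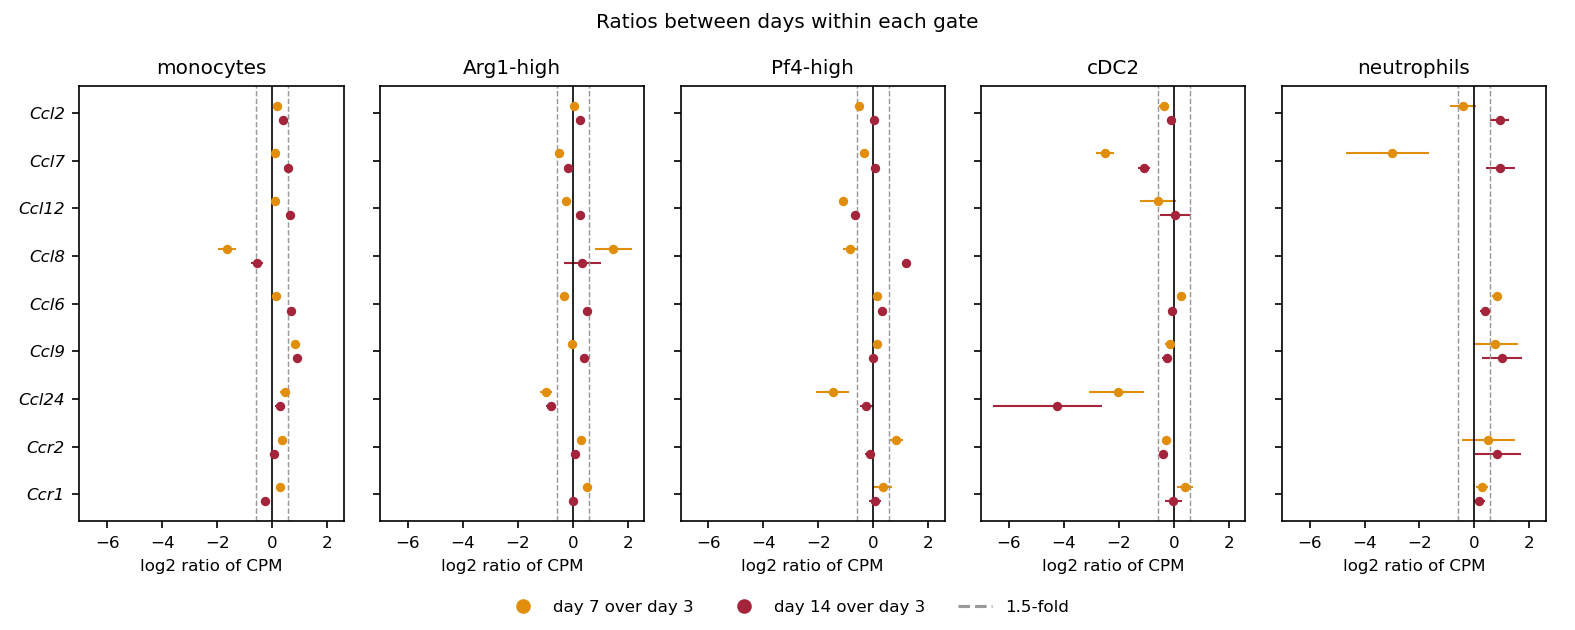
Log2 ratio of each gene's level between days within each cell group, with exact 95% intervals for counting error, for day 7 over day 3 and day 14 over day 3, and dashed lines at 1.5-fold. Ccl8 in Pf4-high macrophages is 2.27-fold higher on day 14 than on day 3, and Ccr2 in classical monocytes is at 1.03-fold on day 14 over day 3.

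Genes of the wider chemokine system were read from lists. In classical monocytes on day 14 over day 3, other CC chemokines had 0 higher and 2 lower of 5 measured (Ccl1, at a ratio of 0.170, and Ccl5, at 0.496), with a median log2 ratio of −0.25. Other chemokines had 3 higher and 4 lower of 8. The neutrophil-drawing Cxcl3 (6.75-fold) and Cxcl2 (2.27-fold) were higher, and the interferon-inducible Cxcl9 and Cxcl10 stood at ratios of 0.136 and 0.202. Other chemokine receptors had 4 higher and 3 lower of 9, among them Ccr9 (3.46-fold) and Ccr7 (2.24-fold), with Cxcr6 at 0.143 and Ccrl2 at 0.556. The 13 receptor signalling genes, from G protein subunits to Rac2 and Dock2, had 0 higher and 0 lower. Of 13 measured inducers of these chemokines, 1 was higher (Ifngr1, 1.55-fold) and 7 lower, with the cytokine Tnf at 0.266 and the transcription factor Irf1 at 0.303.

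The 12 interferon-inducible genes were all lower in monocytes on day 14 than on day 3, with a median log2 ratio of −1.59, and summed to 11805, 5193 and 3040 CPM by day. In Arg1-high macrophages 9 of 12 were lower and 2 higher, and in Pf4-high macrophages 11 of 12 were lower. Their sums were 5131, 3306 and 2039 CPM in Arg1-high and 3294, 2225 and 1462 CPM in Pf4-high macrophages. Ccl2 stood at 2136, 2414 and 2789 CPM in monocytes over the same libraries. The CCR2 ligand and the interferon-inducible list thus lay in opposite directions between day 3 and day 14 in monocytes, although Ccl2 itself differed by 1.31-fold (1.28 to 1.34), under the size rule.

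Genes with a like pattern were ranked by Pearson's r of log2 CPM over the 15 sums of 5 groups and 3 days, which share libraries and so are not independent, among 5879 genes. For Ccl2 they were Psen2 (r = 0.97), Pld3 (0.96) and Aprt (0.96). For Ccr2 they were Capza2, Jarid2 and Ahnak (0.95 each), and for Ccl6 they were Hmox1 (0.97), F7 (0.94) and Tmem120a (0.91). For Ccl24 they were Fn1 (0.94), P2ry10b (0.93) and Sdc4 (0.92). Among the 9 themselves Ccl7 and Ccl12 were closest (0.96), followed by Ccl2 and Ccl7 (0.94), while Ccr2 and Ccr1 were at −0.51. The last value includes neutrophils, which were highest for Ccr1 and lowest for Ccr2. Outside neutrophils, monocytes were highest for both receptors, and r was not computed without neutrophils.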

How the data were processed

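CD45+ cells of 3 pooled 10x 3′ libraries were measured. Per the submitters' processing notes the authors used Cell Ranger 4.0.0 with mm10, and the deposited matrices hold UMI counts. Which annotation release they used is not stated. The labels' field for cell type holds the mouse strain. The genes and lists were chosen with earlier results of these data known. Sums of counts, CPM and exact 95% intervals were computed with Python 3.11.15, numpy 2.4.6, scipy 1.17.1 and pandas 2.3.3 (figures with matplotlib 3.10.9), and TMM factors with R 4.3.3 and edgeR 4.0.16. Levels count a cell in each group it passes, while ratios between groups leave out cells of both. Shares of cells were taken after thinning to 1500 UMIs. No doublet caller was run; cells of more than 1 group and cells with lymphocyte UMIs were left out as alternatives. T cells (Cd3d, Cd3e and Cd3g at least 3, Lyz2 at 0) and B cells (Cd79a and Ms4a1 at least 3, Lyz2 at 0) gave the background. The Lyz2 rule left out T and B cells that held free Lyz2 RNA, so these backgrounds may be too low.

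From each list the up to 2 highest and 2 lowest genes past the size rule, by the interval bound nearest 0, are named, and for likeness the 3 highest r among genes of at least 500 UMIs, with a pseudocount of 1. Genes under 2 gene IDs (Ccl19, Ccl27a) were not measured. Tested on simulated counts for day 14 over day 3, the intervals covered the true ratio in 95.6% of genes in monocytes and recovered 95.0% of 200 genes set 3-fold apart. In neutrophils they covered 96.5% and recovered 82.0%. These counts were Poisson draws, the model that the intervals assume, so coverage near 95% was set in advance. The measured UMIs were often held by single cells, which the draws left out, so the values do not show how the intervals perform on these data. RefSeq promoters were found for 6 of 9 genes, and Ccl2, Ccl7 and Ccl24 had none. Alternatives were other UMI minimums, filters, scalings, per-cell means, doubled thresholds, a 2-fold rule, and leaving out shared barcodes or top cells.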

Additional observations from a re-analysis of the deposited data

Results flagged for a closer look

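Day ratios in opposite directions between cell groups were found for 3 genes, and none of these differences was tested, since each day is 1 library. In each case 1 of the opposed ratios turned in at least 1 alternative. Ccl7 on day 14 over day 3 was at 1.92-fold in neutrophils and at a ratio of 0.473 in cDC2. Without shared barcodes the cDC2 log2 ratio was 0.43. Ccl12 on day 14 over day 3 was at 1.58-fold in classical monocytes and at 0.635 in Pf4-high macrophages. Without cells of more than 1 group the monocyte log2 ratio was −0.0378. The Pf4-high ratio missed the size rule under TMM scaling, with a mean over cells and without shared barcodes. Ccl8 on day 7 over day 3 was at 2.76-fold in Arg1-high macrophages, at 0.324 in monocytes and at 0.56 in Pf4-high macrophages. The Arg1-high log2 ratio was −1.26 without cells of more than 1 group and −1.65 with thresholds doubled. On day 14 over day 7, Ccl8 was at 2.11-fold in monocytes and 4.05-fold in Pf4-high macrophages and at 0.456 in Arg1-high macrophages, where 1 cell held most of its UMIs. Without the top cell the monocyte ratio was 1.08 and the Arg1-high log2 ratio 0.66.

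Barcodes under 1500 UMIs, which no comparison used, also held these ligands above the level in T cells. Ccl8 stood at 262 CPM in 881 such barcodes on day 3 and 168 CPM in 438 on day 7, and Ccl24 at 138 CPM on day 3 and 73.9 CPM on day 7. Most of these barcodes also occurred in another library. Shared barcodes numbered 666 of 3656 on day 3 and 488 of 3038 on day 7, of which 138 and 180 held at least 1500 UMIs. Their part in these values was not tested, and day 14 is not given.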

How the results depend on the processing

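No paired analysis was possible because each day is 1 library. Of the 34 ratios past the size rule, 16 kept their direction and stayed past it under each of up to 11 alternatives of cells and scaling, among them Ccl9 in monocytes, Ccl8 in Pf4-high macrophages on day 14 and Ccl6 in Arg1-high macrophages on day 14 over day 7. Over the 45 gene and group pairs, 4 were higher and 8 lower on day 7 over day 3, 8 and 2 on day 14 over day 7, and 8 and 4 on day 14 over day 3. Of the 45 pairs 41, 40 and 41 were measured in these comparisons, and the shares over all genes stand beside each group's counts above. Under a 2-fold rule 1 was higher and 6 lower on day 7 over day 3, 6 and 1 on day 14 over day 7, and 1 and 2 on day 14 over day 3. On day 14 over day 7, 13 were higher without cells of more than 1 group and 15 without shared barcodes. There 1 was lower without shared barcodes and 1 without the top cell. On day 14 over day 3, 4 were higher at a minimum of 5000 UMIs and 8 lower with thresholds doubled. Neutrophils, which held 4 of the 8 higher pairs, were not compared at 5000 UMIs. All 26 ratios past the rule that could be compared at that minimum stayed past it. The share over all genes was not computed under these alternatives, so their counts have no background. TMM scaling shifted the day 14 over day 3 log2 ratios of all genes by 0.25 in neutrophils, 0.16 in Arg1-high and 0.14 in Pf4-high macrophages. It reversed 0 of the 34 and ended 1, Ccl12 in Pf4-high macrophages.

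Reversed log2 ratios were as follows. Without cells of more than 1 group, Ccl12 on day 14 over day 3 in monocytes was −0.0378, Ccl12 on day 14 over day 7 in cDC2 −1.90, Ccl8 in Arg1-high macrophages −1.26 on day 7 over day 3 and 1.57 on day 14 over day 7, and Ccl24 0.11 in Arg1-high macrophages (day 14 over day 3) and 0.0732 in cDC2 (day 7 over day 3). Without shared barcodes, Ccl7 on day 14 over day 3 in cDC2 was 0.43, Ccl8 on day 14 over day 7 in Arg1-high macrophages 1.67 and Ccl24 on day 7 over day 3 in cDC2 1.18. Without the top cell, Ccl12 in cDC2 was −0.67, Ccl8 in Arg1-high macrophages 0.66 (both day 14 over day 7) and Ccl24 in Arg1-high macrophages 0.22. With thresholds doubled, Ccl12 in cDC2 was −1.98 and Ccl8 in Arg1-high macrophages −1.65 on day 7 over day 3 and 1.72 on day 14 over day 7. The cause was not tested. At 5000 UMIs neutrophils numbered 8, 7 and 6 and were not compared, and doubled thresholds left 18 Pf4-high macrophages on day 7.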

Other observations

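Ccr2 RNA was also found in lymphocytes. Cells with a UMI of the NK cell receptor gene Ncr1 and none of Cd3 genes or Lyz2 had 421, 449 and 350 CPM of Ccr2 by day in 114, 249 and 92 cells, and 72.8%, 83.9% and 72.8% of them had a UMI without thinning. Cells with Foxp3, the regulatory T cell factor, had 337, 657 and 411 CPM in 24, 30 and 51 cells. CD8 cells had 72.1, 81.2 and 39.9 CPM. B cells held 5.29, 0 and 0 CPM, with exact upper bounds of 95.7 CPM on day 7 and 19.3 CPM on day 14 for the zeros. Ccr1, in contrast, stood at 0, 1.76 and 0 CPM in the Ncr1 cells and at 4.69, 67.3 and 12.5 CPM in the Foxp3 cells.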
